A study of Mus musculus with 15 samples.

Results

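A set of 10 mouse genes named for a SCAN domain and zinc fingers, all outside the Zscan4 family, was followed through 2 perturbations of Zscan4. They are Zscan2, Zscan5b, Zscan10, Zscan12, Zscan18, Zscan20, Zscan21, Zscan22, Zscan26 and Zscan29. They were taken by exact gene symbol, and all 10 were found among the 51627 genes of the stem cell table and among the 53564 genes of the embryo table. The first comparison used J1, an embryonic stem cell (ESC) line of the mouse, cultured free of feeders, with the genotype label Zscan4 OE (overexpression, 2 libraries) or wild type (control, 2 libraries). The second used 2-cell embryos labelled Zscan4 RNAi (6 libraries) or wild type (control, 5 libraries). The ESC libraries share the passage label PN+8. The construct behind the overexpression, its promoter, the number of clones, the RNAi agent, the embryos per library, and the strain and age of their parents are not stated by the labels.

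The SCAN domain is a leucine-rich module through which zinc finger proteins pair with themselves or with one another, and the zinc fingers behind it bind DNA. Zscan4 has the same architecture and is known from 2-cell embryos and from the few ESCs that switch it on. Zscan10, also called Zfp206, is a transcription factor of ESCs that shares many binding sites with Oct4 and Sox2. Zscan21, also called Zipro1, is known from proliferating granule neuron precursors, and Zscan2, also called Zfp29, from spermatids. The background of the other members is not given here, apart from ZSCAN18, a human gene whose promoter is often methylated in tumours.

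In short, 2 members were higher in overexpressing ESCs, Zscan22 and Zscan10, and 1 member, Zscan5b, was lower in RNAi embryos. Zscan5b was not among those that passed the test in ESCs, and Zscan10 was not among those that passed in embryos. Zscan22 was almost unread in embryos.

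The unit is the normalised read, a read count scaled by the authors to its library's size factor, and group values are mean ± SD. Between 21820093 and 26555027 reads were counted in each ESC library, and 695524 to 1432566 in those from embryos. The 9 Zscan4 genes, all called higher with overexpression, summed to 20005 and 19449 normalised reads in overexpression libraries and to 152 and 212 in ESC controls. In embryos 5 of the 9 were lower and 0 higher with RNAi, and their sums ranged from 13.9 to 383 with RNAi and from 345 to 1064 in controls. The 2 overexpression libraries differed from each other more than the 2 controls did, with a median SD per gene of 0.41 and 0.09 on the log2 scale. The Zscan4 sum of embryo control 5 fell within the range of the RNAi libraries.

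The labelled cell types were checked against 4 lists of markers. Over all genes tested, 11.7% were called higher and 11.4% lower in ESCs, and 6.13% higher and 12.0% lower in embryos. All 8 ESC markers were tested in the ESC table, with a sum of 106052 and 136439 normalised reads in overexpression libraries and 95780 and 96034 in controls; 1 was called higher (Zfp42) and 0 lower. All 10 markers of 2-cell embryos, mostly oocyte transcripts, were tested in embryos, and their sum was 8855 to 23107 with RNAi and 4520 to 8809 in controls. Of these 10, 4 were higher with RNAi and 0 lower. In ESCs the same list had 2 higher and 0 lower of 6 tested, with sums of 899.8 and 1658 in overexpression libraries and 918 and 772 in controls and with Oosp1, Obox5 and Btg4 at 0. The ESC markers in embryos had 0 higher and 2 lower of 8 tested (Dppa5a and Klf4), with sums of 241 to 380.5 with RNAi and 525 to 985 in controls, which did not overlap. Markers of fibroblasts summed to 541 and 658 in overexpression libraries and 969 and 987 in ESC controls, with 2 higher and 2 lower of 5 tested and no gene at 0. Those of cumulus and granulosa cells summed to 86.6 and 159.8 in overexpression libraries and 158 and 174 in ESC controls, with 1 lower of 7 tested and Hsd3b1 at 0. In embryos the fibroblast sum was 5.74 to 43.0 with RNAi and 2.34 to 24.3 in controls, with Col3a1 at 0, and the cumulus and granulosa sum was 2.70 to 8.24 with RNAi and 1.39 to 3.91 in controls, with Amh, Inha and Has2 at 0; of both lists 3 genes were tested and 0 called. The part of these shifts in the results on the SCAN genes was not tested.

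The members are spread over 6 chromosomes (mm10 coordinates, GENCODE vM21). On chromosome 7 lie Zscan5b (6222278 to 6239423), Zscan18 (12768090 to 12803635), Zscan22 (12897815 to 12909083) and Zscan2 (80860920 to 80876537). The Zscan4 cluster is on the same chromosome, between 10794242 and 11614112, 1.15 megabases from Zscan18, 1.28 from Zscan22, 4.55 from Zscan5b and 69.2 from Zscan2. On chromosome 13, Zscan12 (21362820 to 21372289) and Zscan26 (21442180 to 21453730) flank Zkscan3, another SCAN gene. Zscan10 is on chromosome 17 (23600856 to 23611019), Zscan20 on chromosome 4 (128583539 to 128610098), Zscan21 on chromosome 5 (138116903 to 138134265) and Zscan29 on chromosome 2 (121158273 to 121171125). All 10 are annotated as protein-coding.

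The members share no 50-base sequence with Zscan4. None of the members' 50-base transcript stretches occurs in a transcript of a Zscan4 gene, on either strand (0 in each of the 10 members). Zscan10, Zscan18, Zscan21 and Zscan22 share 0% of their stretches with any other gene. The share was 0.262% to 2.37% for Zscan2, Zscan5b, Zscan12, Zscan20 and Zscan29, and 22.8% for Zscan26, mostly with 4930470G03Rik, a noncoding RNA from the opposite strand. Zscan29 also overlaps Tubgcp4 and Zscan18 overlaps pseudogenes. The strand setting of the counting is not stated, and the values of Zscan18, Zscan26 and Zscan29 are uncertain.

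Promoter sequences from RefSeq (GRCm38.p6, the assembly of mm10; 250 bases before to 50 after a gene start) were found for 9 of the 10 members, all but Zscan5b. Those of Zscan10 and Zscan22 are shown because both genes were higher in overexpressing ESCs. They are written 5′ to 3′ on the plus strand, which is the gene strand of both, at chr17:23600576-23600875 and chr7:12897559-12897858. Capitals mark CG dinucleotides.
Zscan10: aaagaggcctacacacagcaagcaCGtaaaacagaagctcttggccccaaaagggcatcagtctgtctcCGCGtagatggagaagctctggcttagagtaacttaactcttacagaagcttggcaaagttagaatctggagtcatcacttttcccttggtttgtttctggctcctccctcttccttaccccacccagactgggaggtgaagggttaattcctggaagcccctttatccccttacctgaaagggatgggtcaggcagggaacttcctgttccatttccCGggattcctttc
Zscan22: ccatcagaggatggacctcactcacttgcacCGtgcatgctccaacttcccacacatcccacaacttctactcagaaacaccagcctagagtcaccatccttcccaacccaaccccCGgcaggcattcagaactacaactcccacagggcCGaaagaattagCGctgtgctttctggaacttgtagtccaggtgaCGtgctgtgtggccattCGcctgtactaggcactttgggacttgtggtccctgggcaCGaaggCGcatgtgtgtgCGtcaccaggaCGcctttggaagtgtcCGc
The Zscan10 promoter holds 4 CG dinucleotides and the Zscan22 promoter 11. Over all 32851 promoters of the table the median was 7, with quartiles of 3 and 20, so the 2 genes lie on opposite sides of the median for CG.

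A set of 4 short motifs, none of which contains another, was searched on both strands of the members' 12 promoters (Zscan2 and Zscan18 have more than 1 start). TGCACAC, a sequence reported for Zscan4 binding, was in 0 of 12, and in 4.40% of all promoters. GGGCGG, the GC box, was in promoters of 3 members, Zscan2, Zscan18 and Zscan21, and in 35.7% of all promoters. CCAAT was in those of Zscan2 and Zscan20 (37.4% of all promoters), and TATAAA in 1 start of Zscan2 (13.6%). The Zscan10 and Zscan22 promoters held none of these 4 motifs, which says only that these letters are not in these windows.

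Levels in ESCs were set side by side per kilobase of exon, since the genes differ in length. With overexpression, Zscan10 was at 1886 ± 469.9 normalised reads per kilobase, Zscan26 at 219 ± 93.6, Zscan21 at 214 ± 16.2, Zscan22 at 111 ± 19.8 and Zscan5b, the lowest, at 23.0 ± 0.0993. In controls, Zscan10 was highest at 668 ± 7.68, followed by Zscan26 at 209.9 ± 0.267, Zscan21 at 137 ± 3.55, Zscan18 at 82.2 ± 2.26 and Zscan12 at 70.9 ± 1.94. Below these, from Zscan2 (43.4 ± 0.586) through Zscan29 (38.5 ± 2.79) and Zscan5b (32.2 ± 4.67) to Zscan22 (27.2 ± 0.714), neighbours in the order differed by less than 2 SD of the more variable gene of the pair. Zscan20 was lowest, and further apart from Zscan22, at 24.3 ± 0.262. Zscan22, next to last in controls, lay above 6 of the other members with overexpression.

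The ESC comparison asks how these genes stand when cells carry more Zscan4. Of the 10 members, all tested, 2 were higher and 0 lower at an adjusted p under 0.05 in limma, against 23.2% of the 20888 genes tested that were called in either direction and 11.7% called higher. The median log2 fold change of the members was 0.27, beside -0.02 over all genes tested. The overexpression libraries did not overlap the controls for 5 members on the higher side (Zscan10, Zscan20, Zscan21, Zscan22 and Zscan29) and for 1 on the lower side (Zscan5b). Over all genes tested, 68.8% did not overlap, 34.2% on the higher and 34.6% on the lower side. Of all called genes 50.7% were higher, and 62.5% with quality weights in voom.

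Zscan22 had 438 and 339.8 normalised reads with overexpression, against 97.1 and 93.6 in control ESCs. Both overexpression libraries were far above both controls. The means were 389 ± 69.2 and 95.4 ± 2.50 (n = 2 each), a 4.07-fold difference, with a log2 fold change of 2.00 (SE 0.24, adjusted p = 0.017 in limma). Zscan22 is a SCAN zinc finger gene of unsettled function.

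Zscan10, the ESC transcription factor, had 4439 and 6336 normalised reads with overexpression, against 1922 and 1891 in the controls. The groups were apart, with the second overexpression library the higher. The means were 5388 ± 1342 and 1907 ± 21.9 (n = 2 each), 2.83-fold higher, with a log2 fold change of 1.48 (SE 0.23, adjusted p = 0.023 in limma). Zscan10 made up 52.8% and 65.9% of the members' summed normalised reads with overexpression, and 39.8% and 40.7% in controls.

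Both calls were lost when either control was left out. With control 1 left out the adjusted p was 0.252 for Zscan22 and 0.285 for Zscan10, and with control 2 left out 0.257 and 0.284; the log2 fold changes without a control stayed between 1.46 and 2.03. In such a fit the lone control is assumed to vary like the overexpression libraries, and limma then called 0 of the 20888 genes (3617 and 3646 at an unadjusted p under 0.05).

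**Figure D1:**
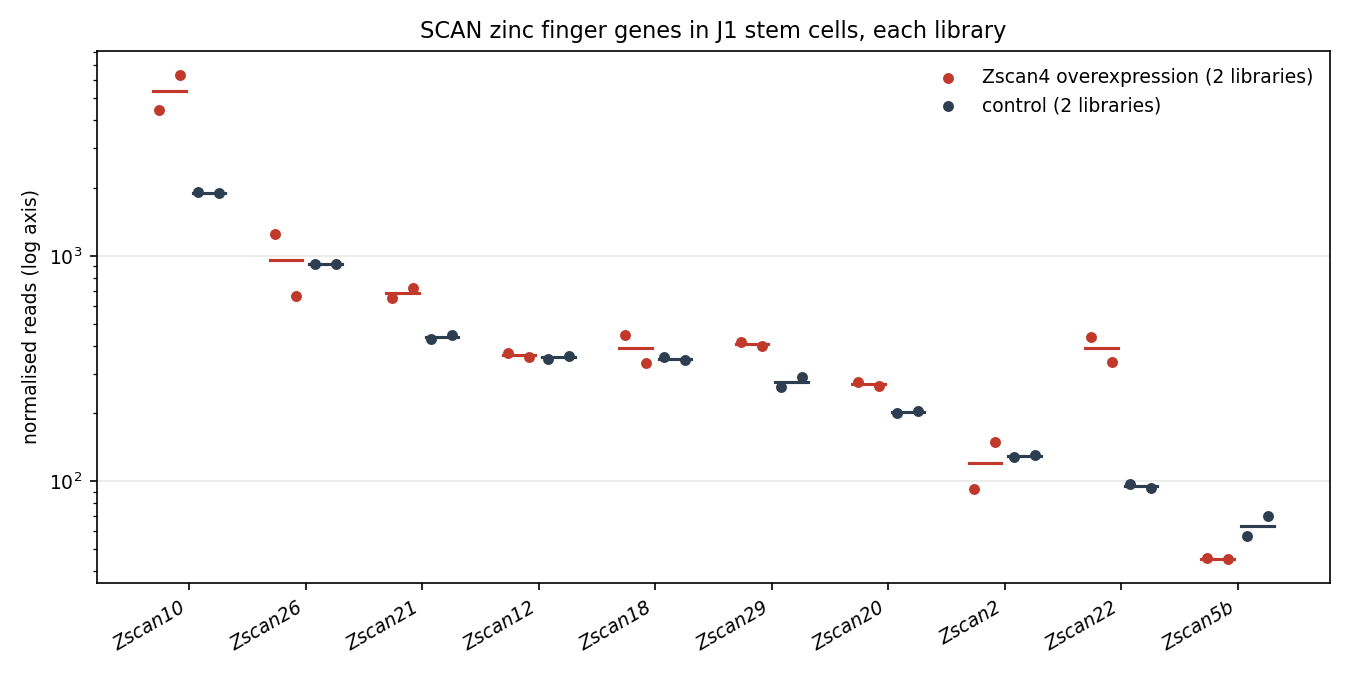
Normalised reads (vertical log axis) of the 10 SCAN zinc finger genes in each ESC library, with overexpression in red left of controls in dark; bars are group means over 2 libraries. The red points of Zscan22 (438 and 339.8) and of Zscan10 (4439 and 6336) lie well above the dark ones, while those of Zscan26 and Zscan2 fall on both sides of the controls.

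Zscan21 and Zscan29 had higher values with overexpression without passing the test. Zscan21 stood at 649 and 722 normalised reads with overexpression, against 429.5 and 446 in controls (log2 fold change 0.65, SE 0.18, adjusted p = 0.0673 in limma). Its adjusted p was 0.0174 to 0.432 over 14 alternatives, of which 2, each without 1 overexpression library, passed. Zscan29 stood at 415 and 399 with overexpression, against 262 and 290.2 in controls (0.56, SE 0.19, adjusted p = 0.104 in limma). Zscan20 stood at 277 and 263.5 with overexpression, against 202 and 205 (0.41, SE 0.20, adjusted p = 0.206 in limma).

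The remaining 5 members gave no call. Zscan5b, the lowest member per kilobase with overexpression, stood at 45.6 and 45.3 normalised reads, against 57.1 and 70.2 in controls, a log2 fold change of -0.47 with a 95% interval of -1.29 to 0.35. Zscan26 stood at 1243 and 665 with overexpression, against 917 and 916 in controls, so that the 2 overexpression libraries lay on opposite sides of the controls. Without overexpression library 1 it was called lower (-0.46, adjusted p = 0.016 in limma), and without library 2 it was called higher (0.44, adjusted p = 0.0194 in limma). Zscan2 also had 1 overexpression library on either side of the controls, at 92.1 and 149 with overexpression and 129 and 131 in controls, and no alternative gave it a call. Zscan18 stood at 445 and 335 with overexpression and 357 and 344 in controls, with an interval of -0.48 to 0.76 on the log2 scale. Zscan12 stood at 370.1 and 358 with overexpression and 348 and 361 in controls, a log2 fold change of 0.04 (-0.46 to 0.53).

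Genes within 50 kilobases of the called members were compared in the same fit. Around Zscan10, 3 of 5 tested neighbours were higher and 0 lower, beside 11.7% called higher over all genes tested; with 5 genes this is a description. One is Zfp213, itself a SCAN zinc finger gene, 36618 bases away, with 242 and 342 normalised reads in overexpression libraries and 67.6 and 86.1 in controls (log2 fold change 1.90, SE 0.30, adjusted p = 0.0244 in limma). The others were Mmp25, a matrix metalloproteinase gene (271 ± 126 normalised reads with overexpression, 36.3 ± 4.23 in controls), and Gm26695, a noncoding RNA gene with no control read (16.3 ± 7.88 with overexpression); these 2 were chosen after their values were seen. Gm26695 overlaps Zfp213 on the opposite strand, and the strand setting of the counting is not stated, so their reads may be shared. Around Zscan22, 0 of 5 tested neighbours passed in either direction. The medians of their chromosomes were near 0, at 0.03 for the 906 tested genes of chromosome 17 and 0.09 for the 1694 of chromosome 7.

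Some neighbours of Zscan26, Zscan12, Zscan21 and Zscan29 were called while these members, with all libraries, were not. Of the 5 tested neighbours of Zscan26, 2 were lower, beside 11.4% called lower over all genes tested. They were Zkscan4, 25177 bases away, and Pgbd1, a gene derived from a transposase, 1122 bases away. Around Zscan12, 2 of 3 were lower, Pgbd1 again among them. Around Zscan21 1 of 6 and around Zscan29 1 of 4 were higher. Around Zscan2, Zscan5b, Zscan18 and Zscan20, 0 were called. Pgbd1 averaged 4.24 ± 4.31 normalised reads with overexpression and 159.96 ± 13.4 in controls (n = 2 each; adjusted p = 0.0202 in limma), and it was named after its value was seen.

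The other SCAN genes, Zscan4 aside, were taken from a list of 32 symbols, of which 29 were in the table and tested. Of these, 2 were higher, Zfp213 and Zfp202, and 1 lower, Zkscan4, where 11.7% of all genes tested were called higher and 11.4% lower, with a median log2 fold change of -0.07 beside -0.02 over all genes. Zfp202, whose human counterpart represses genes of lipid metabolism, stood at 176 and 162 normalised reads with overexpression, against 41.0 and 68.3 in controls (1.66, SE 0.35, adjusted p = 0.0395 in limma). Zkscan4 stood at 11.9 and 15.5, against 52.4 and 41.2 (-1.70, SE 0.38, adjusted p = 0.0436 in limma). Zfp213 and Zfp202 lost their calls in 2 and 5 of 14 alternatives and Zkscan4 in 8.

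A list of 12 genes of the pluripotency network around Zscan10 had 3 higher and 0 lower in ESCs, where 23.2% of all genes tested were called and 11.7% called higher. Its median log2 fold change was 0.58, beside -0.02 over all genes tested. Zfp42, the gene of the ESC marker Rex1, stood at 20878 and 17653 normalised reads with overexpression, against 6447 and 6443 in controls. Lin28a, which encodes an RNA-binding protein of stem cells, averaged 10383 ± 621 with overexpression and 5078 ± 141 in controls, and Sall4, a zinc finger factor gene, 9469.96 ± 1125 with overexpression and 4545 ± 102 in controls (n = 2 each). Their adjusted p were 0.0152, 0.0225 and 0.0248 in limma. The other 9 did not pass. Of these, 4 had negative log2 fold changes with no overlap between the groups: Tfcp2l1 (-1.09), Esrrb (-0.55), Tdgf1 (-0.52) and Sox2 (-0.39). Over all genes tested, 34.6% had groups that did not overlap on the lower side. Tfcp2l1, a transcription factor gene of naive ESCs, averaged 3133 ± 1419 normalised reads with overexpression and 6308 ± 285 in controls (n = 2 each; adjusted p = 0.0942 in limma). The other 5 had positive ones, from 0.40 for Pou5f1 and 0.48 for Nanog to 0.90 for Dppa3.

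In embryos the members had another order of levels. Per kilobase, Zscan5b was highest in both groups, at 25.9 ± 21.1 normalised reads with RNAi (n = 6) and 134 ± 33.9 in controls (n = 5). Zscan21 followed at 5.63 ± 2.42 with RNAi and 8.88 ± 3.17 in controls, and Zscan10 at 4.12 ± 4.69 and 3.63 ± 2.23. In controls the next, Zscan26 (2.53 ± 2.72), Zscan29 (1.94 ± 0.980), Zscan12 (0.666 ± 0.751), Zscan18 (0.369 ± 0.287) and Zscan20 (0.326 ± 0.4097), each differed from the gene before it by less than 2 SD of the more variable of the pair. Zscan5b made up 12.5% to 73.0% of the members' summed normalised reads in RNAi libraries and 69.96% to 86.6% in control embryos. In ESCs that share was 0.471% and 0.542% with overexpression and 1.21% and 1.48% in controls. The tables were normalised separately, and these shares were not tested against each other.

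The embryo comparison asks how these genes stand when Zscan4 is lowered by RNAi. Of the 10 members, 8 passed the filter of at least 1 normalised read in at least 5 libraries, and 1 of them, Zscan5b, was lower at an adjusted p under 0.05, with 0 higher. Over all 16417 genes tested, 18.2% were called, 6.13% higher and 12.0% lower; of the called genes 33.8% were higher, and 46.5% after quantile normalisation. The median log2 fold change of the 8 tested members was -0.26, beside -0.03 over all genes. Scaled bulk values do not tell fewer cells carrying a transcript from less RNA per cell.

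Zscan5b stood at 50.8, 122, 57.4, 6.97, 59.5 and 10.4 normalised reads in RNAi libraries 1 to 6. In the control libraries 1 to 5 it stood at 257, 329.7, 249, 327 and 166. Every RNAi library lay below every control, with RNAi 2 the highest of its group and control 5 the lowest of the controls. Over all genes tested, 7.33% had groups that did not overlap, 4.28% on the lower and 3.05% on the higher side.

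The mean was 51.2 ± 41.9 with RNAi (n = 6) and 266 ± 67.2 in controls (n = 5), 5.19-fold lower with RNAi. The log2 fold change was -2.86 (SE 0.55, 95% interval -4.00 to -1.73, adjusted p = 0.00354 in limma). In an exact two-sided permutation test over 462 assignments p was 0.00433. With 462 assignments the p of this test can move only in coarse steps. Of the 16417 genes tested, 330 had a log2 fold change as low as or lower than Zscan5b, itself included. The call held in all 21 alternatives tried, with adjusted p from 0.000497 to 0.0142 and log2 fold changes from -3.22 to -2.25. With control 5 and RNAi 4 both left out it was -2.59 (adjusted p = 0.00236 in limma).

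The Zscan4 sum and Zscan5b did not follow the same order within the RNAi group. RNAi 4 was lowest in both, at 13.9 and 6.97 normalised reads. RNAi 2, however, had the most Zscan5b (122) with a Zscan4 sum of 164, while RNAi 5 had the most Zscan4 (383) with 59.5 of Zscan5b. Over the 6 RNAi libraries Pearson's r was 0.70 (exact permutation p = 0.0819) and Spearman's rho 0.43 (exact permutation p = 0.419) on the log2 scale, the only relation of this kind computed. Without the 2 libraries farthest from the median Zscan4 sum r was 0.16 (n = 4), over a narrower range of the sum. No relation was established over these libraries.

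**Figure D2:**
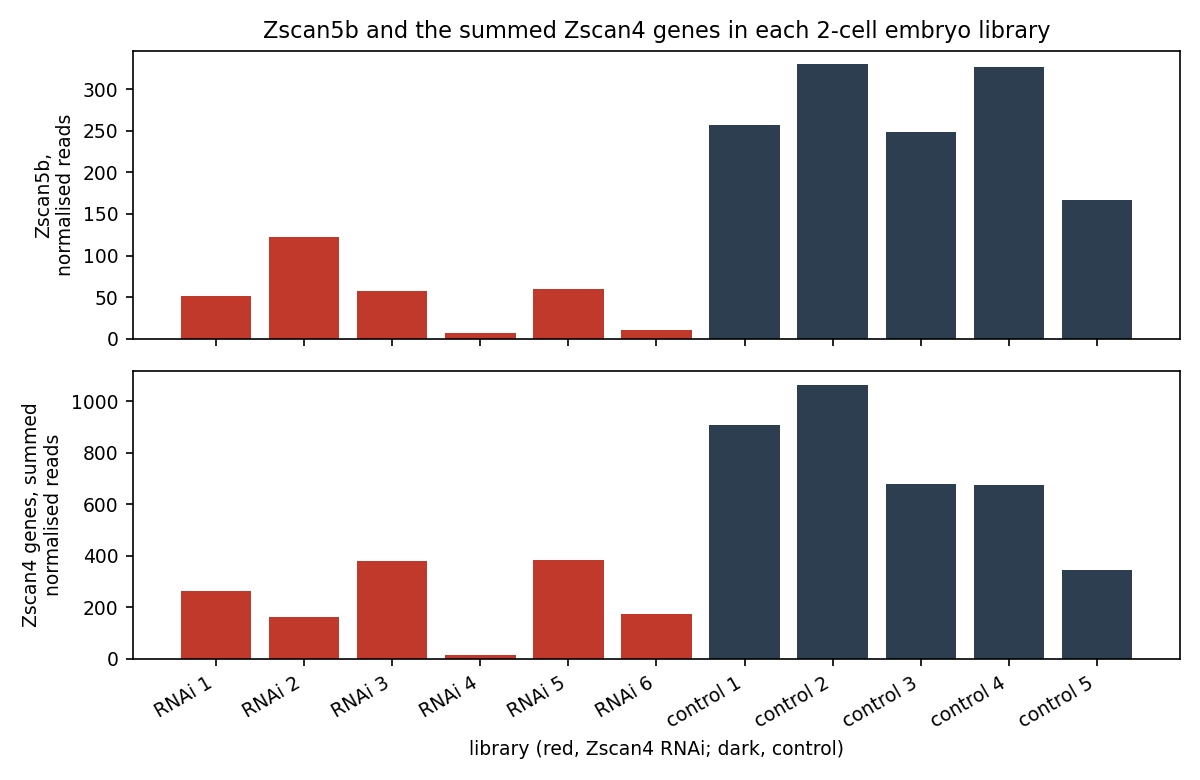
Zscan5b (upper) and the 9 Zscan4 genes summed (lower), in normalised reads, for each embryo library, RNAi in red and controls in dark. Zscan5b in RNAi libraries reaches at most 122 and in controls at least 166, whereas the Zscan4 sums overlap, at 383 in RNAi 5 and 345 in control 5.

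Among the 10 markers of the embryo list, 4 oocyte genes were called in the direction opposite to Zscan5b, where 6.13% of all genes tested were called higher. Btg4, a gene of maternal mRNA decay, Bmp15 and Gdf9, oocyte growth factor genes, and Ooep, a maternal gene of the oocyte cortex, were higher with RNAi. The sum of the 10 markers was 14626, 8855, 17406, 18166, 9904 and 23107 in RNAi libraries 1 to 6. RNAi 2 had the most Zscan5b of its group and RNAi 4 and 6 the least, while RNAi 1, 3 and 5 lay between them. In control libraries 1 to 5 the sum was 8809, 6728, 6380, 4520 and 7928. No relation of this sum to Zscan5b was computed. The summed ESC markers were lower with RNAi, as Zscan5b was. The part of these shifts in the Zscan5b difference was not tested.

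Genes whose profile over the 11 embryo libraries was most like that of Zscan5b were found by the root mean square difference of centred log2 values, over 9274 genes with a mean of at least 10. They were Snhg1, a noncoding host gene of small nucleolar RNAs (difference 0.34), Btbd18 (0.42), which is known from male germ cells, Gm14494 (0.42), a predicted gene, and Utp14b (0.44), a ribosome biogenesis gene; the median over all genes compared was 1.88. Their log2 fold changes were between -2.54 and -2.85. Values near that of Zscan5b follow from the choice of these genes, since the profile spans both groups. Their means were 6.14 ± 4.54, 34.7 ± 34.0, 4.73 ± 3.47 and 22.4 ± 15.5 normalised reads with RNAi, against 32.8 ± 10.4, 145 ± 52.0, 34.2 ± 16.2 and 108 ± 32.6 in controls. Within 50 kilobases of Zscan5b, 3 genes were tested and 0 passed in either direction. Their log2 fold changes were -1.90 for Zfp444 (adjusted p = 0.055 in limma), 0.87 for Epp13 and 0.79 for Zfp667.

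**Figure D3:**
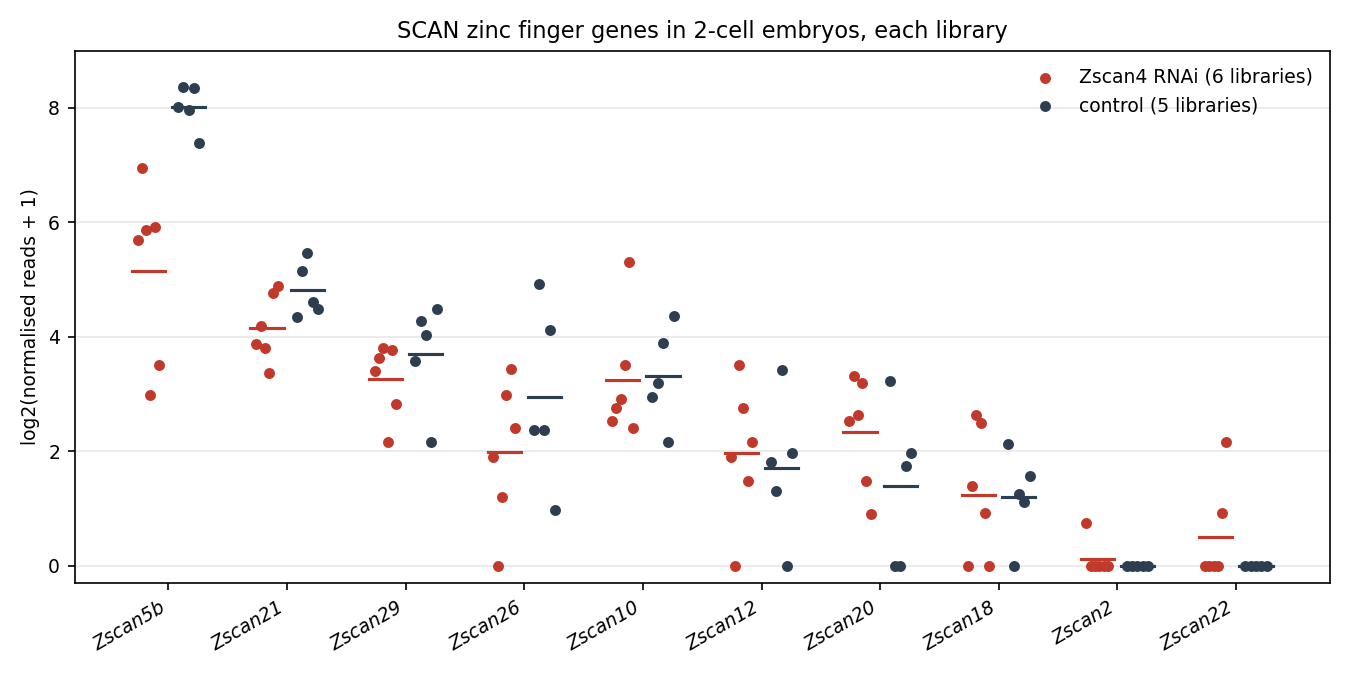
log2(normalised reads + 1) (vertical axis) of the 10 SCAN zinc finger genes in each 2-cell embryo library, RNAi in red left of controls in dark; bars are group means over 6 and 5 libraries. Zscan5b is the 1 gene whose groups are apart; Zscan2 and Zscan22 sit at 0 in nearly all libraries.

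For 7 members that passed the filter, RNAi and control embryos overlapped and the test gave no call. Zscan21, the most abundant of them, ranged from 9.29 to 28.6 normalised reads with RNAi (median 15.5) and from 19.3 to 43.1 in controls; its log2 fold change was -0.66 with a 95% interval of -1.56 to 0.23 (adjusted p = 0.295 in limma). Zscan29 averaged 9.39 ± 3.85 with RNAi and 13.9 ± 7.02 in controls, with an interval of -1.59 to 0.71. Zscan26 was scattered in controls, at 0.978 to 29.5 normalised reads, and lay between 0 and 9.92 with RNAi (interval -2.55 to 0.62).

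Zscan10, called higher in overexpressing ESCs, stood at 4.81, 5.74, 6.52, 10.4, 38.8 and 4.34 normalised reads in RNAi libraries 1 to 6, against 6.71, 8.11, 13.9, 3.51 and 19.6 in controls 1 to 5. RNAi 5 stood apart from the other RNAi libraries, which lay within the range of the controls. The log2 fold change was -0.07 (SE 0.61, adjusted p = 0.948 in limma), and its 95% interval, -1.35 to 1.21, spans changes of more than 2-fold either way. The Zscan10 network list had 0 higher and 1 lower of 12, Klf4, a reprogramming factor gene, at 12.0 ± 8.59 with RNAi and 35.0 ± 19.5 in controls (adjusted p = 0.0499 in limma); this call was lost in 13 of 21 alternatives.

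Zscan12, Zscan18 and Zscan20 had few reads in embryos, and their intervals were wide. Zscan12 had 23 reads in the 6 RNAi libraries and 15 in the 5 controls, Zscan18 had 11 and 8, and Zscan20 had 32 and 15. The interval of the log2 fold change was -0.48 to 2.395 for Zscan20, -1.19 to 1.73 for Zscan12 and -1.26 to 1.32 for Zscan18, each on the log2(value + 1) scale.

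Zscan2 and Zscan22 did not pass the filter in embryos. Zscan22 had 5 reads in the RNAi libraries, 1 in RNAi 5 and 4 in RNAi 6, and 0 in the controls; 0 of 4829189 control reads allows up to 0.621 CPM. Zscan2 had 1 read in RNAi 1 and 0 elsewhere. No fold was computed for either. In ESCs Zscan22 had 765 reads with overexpression and 202 in controls, and Zscan2 had 226 and 275.

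**Figure D4:**
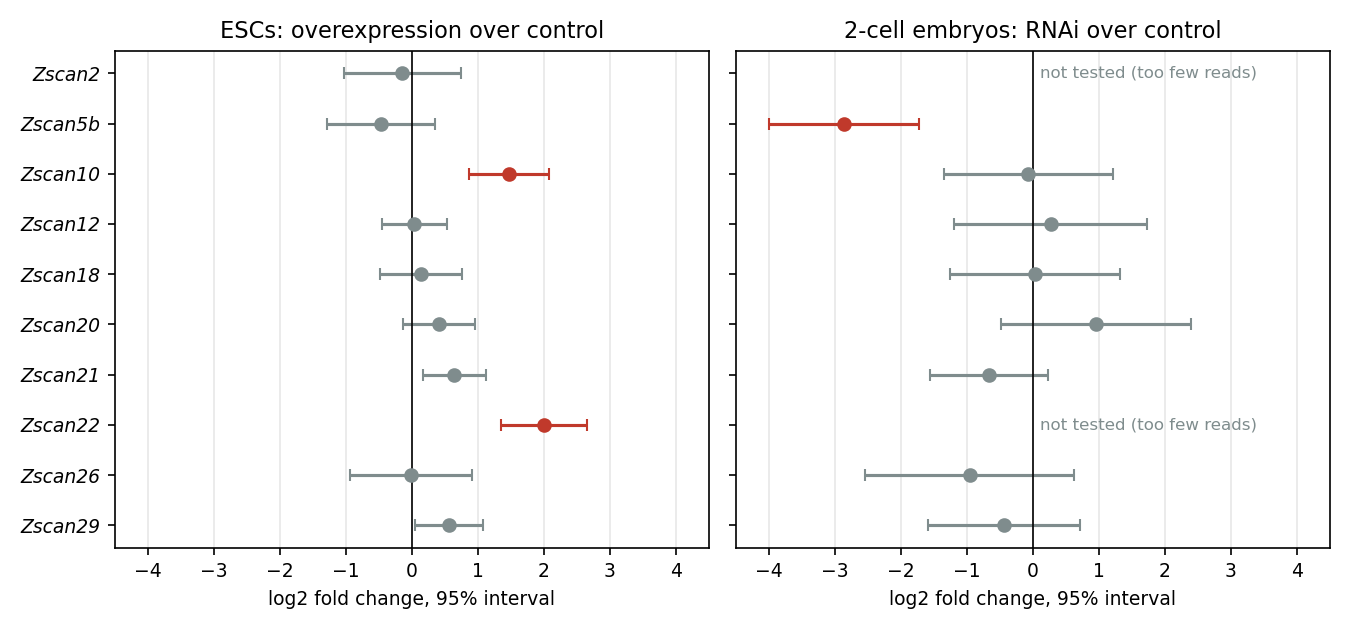
log2 fold change (horizontal axis) with its 95% interval from limma for each SCAN zinc finger gene, for overexpression over control in ESCs (left) and RNAi over control in embryos (right); red marks an adjusted p under 0.05. Zscan10 and Zscan22 are red on the left at 1.48 and 2.00, and Zscan5b is red on the right at -2.86.

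Among the other SCAN genes, 21 of 29 in the table were tested in embryos, with 0 higher and 2 lower, where 6.13% of all genes tested were called higher and 12.0% lower. Their median log2 fold change was 0.15, beside -0.03 over all genes tested. Zfp369, related to a factor that interacts with the neurotrophin receptor p75, lay between 0 and 9.02 normalised reads with RNAi and between 4.89 and 52.9 in controls (-3.17, SE 0.74, adjusted p = 0.00761 in limma). Zfp446 lay between 0 and 6.18 with RNAi and between 1.39 and 22.6 in controls (-2.35, SE 0.69, adjusted p = 0.024 in limma), a call lost in 7 of 20 alternatives. In both genes the groups overlapped.

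For no member did a call in one comparison meet a call in the other. Zscan22 and Zscan10 were called in ESCs; in embryos Zscan22 was too rare to test and Zscan10 had an interval that includes 0. Zscan5b was called in embryos and had an interval of -1.29 to 0.35 in ESCs, where 88 reads were counted with overexpression and 135 in controls. Whether the effects in ESCs and in embryos differ was not tested, since the perturbations and the normalisation differ.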

How the data were processed

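RNA-Seq was deposited as 1 table of ESC genes and 1 of embryo genes. The submitters' processing notes name mm10, featureCounts, HISAT2 and Trimmomatic; not given in the sources used here: versions, gene annotation, strandedness, scaling method. The labels give genomic DNA as library source and a transposase-based DNA library kit, whereas titles name RNA-Seq throughout; the values are gene-level and were treated as such. The deposited unit is a signal: each gene count was scaled by the authors with a single factor for its library. All values (100%) are whole multiples, within 0.01 of a read, of the library's smallest value, and dividing by it gave back whole reads. The embryo control columns are numbered 1 to 5 and the labels 3 to 7, so those numbers only name libraries. Both tables were normalised separately, and no test crosses them.

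Group differences were tested with limma 3.58.1 (trended prior, log2(value + 1)) on genes with at least 1 normalised read in at least 2 ESC or 5 embryo libraries, fitted on the whole table without covariates, calling Benjamini-Hochberg adjusted p under 0.05. A fold is a ratio of group means; the pseudocount of 1 makes log2 fold changes of low genes too small. On the recovered reads, edgeR 4.0.16 called 4510 ESC and 2169 embryo genes and DESeq2 1.42.0 called 5521 and 3304. Nothing in the labels says that libraries of a group came from separate cultures or embryo pools, so p-values measure the spread between these libraries, which may be technical. Pairs of libraries within a group differed by more than sampling noise (chi-square per degree of freedom 2.69 or more), and each counted as 1 replicate. Alternatives were other pseudocounts (0.5 and 4), filters, scalings, tests, a replicate block in ESCs and leaving out each library.

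All members are named with their values; of the other SCAN genes and the Zscan10 network list, called genes with the smallest adjusted p, up to 6 per list. The members and lists were chosen with earlier results of these data known. Depth per library was 21820093 to 26555027 reads in ESCs and 695524 to 1432566 in embryos. A count of 0 was given a limit of 3 reads over the group, which covers counting error only.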

Additional observations from a re-analysis of the deposited data

Results flagged for a closer look

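Of 18 groups of embryo libraries with at least 1 read of a member, 3 held a library far from the others, all among the 6 RNAi libraries. Chance flags about 1 group in 20 where values are well measured; that rate does not apply to groups with 0 or 1 read in most libraries, as for Zscan2 and Zscan22. Zscan10 stood at 38.8 normalised reads in RNAi 5, with the next library at 10.4, and the gap was 0.823 of the group's range. Zscan22 stood at 3.47 in RNAi 6, which is 4 reads, with the next library at 0.902. Zscan2 stood at 0.687 in RNAi 1, which is 1 read, with 0 in the others.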

How the results depend on the processing

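The count of members past the threshold was 1 in embryos under all 21 alternatives and 2 in ESCs under the 10 that kept all libraries; leaving out each ESC library gave 0 to 4 (0 without either control, 4 without either overexpression library). Over all genes, limma called 4843 in ESCs but 0 without either control, 10855 and 9004 without overexpression replicate 1 and 2. In embryos it called 2983, and 1730, 1934 and 1755 without control 2, 3 and 4. Quantile normalisation raised the median log2 fold change of all embryo genes by 0.17. Of 301 log2 fold changes of members under the alternatives, 269 kept direction and side of the threshold, 4 lost the call (Zscan10 and Zscan22 without an ESC control), 3 gained one without an overexpression library (Zscan21 in both cases, Zscan26 without library 1) and 25 changed sign, of which 1, Zscan26 without overexpression library 2, was then called. In ESCs these were Zscan26 in edgeR (0.0518) and DESeq2 (0.0605) and, leaving out each library, Zscan26 (-0.46 to 0.44), Zscan2 (-0.49 to 0.20) and Zscan18 (-0.0642 to 0.34). In embryos Zscan10 was 0.0060 with TMM scaling, 0.13 after quantile normalisation, 0.26 in edgeR, 0.19 in DESeq2 and in voom, 0.13 without control 5 and RNAi 4 (chosen after seeing the data) and -0.49 to 0.19 leaving out each library. Zscan18 was -0.0367 at a pseudocount of 0.5, -0.26 in voom, -0.13 without control 5 and RNAi 4 and -0.27 to 0.28 leaving out each library; Zscan12 was -0.16 to 0.70 leaving out each library. The cause was not tested. The replicate block kept both ESC calls (adjusted p = 0.00323 for Zscan10 and 0.00161 for Zscan22 in limma, 2 members called) with 6024 genes called in all. The correlation of same-numbered deviations was -0.0072 over 20888 genes. The 2 ESC controls differed little from each other (median SD 0.09 on the log2 scale), so this value cannot decide whether the libraries were paired. No paired analysis was made for the embryos, since the labels name no pairs and there are 6 RNAi and 5 control libraries. The control columns also carry other numbers than the labels. In embryos 1 read was worth 0.687 to 1.39 normalised reads, which limits what can be seen for the rarer members.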
